A study of Mus musculus with 16 samples.

Results

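The genes described here are 44 kinases, adaptors, phosphatases, lipid enzymes and small GTPases that act below FcεRI, the high-affinity IgE receptor of mast cells. They were taken as a named list of pathway genes, drawn up with earlier results of these data known, and were matched by symbol to the Ensembl gene IDs of GRCm38. All 44 were found among the 39179 genes with deposited counts, and all 44 were among the 13305 genes that passed the filter on low counts. Fgr passed that filter only through the libraries with DEX, since it had no read in the others. In the mast cell, antigen cross-links IgE on FcεRI, Lyn phosphorylates the receptor tails, and Syk docks on them and phosphorylates the scaffold LAT. Adaptors on LAT gather phospholipase C gamma, Vav1 and the Tec kinases, which lead to calcium release, protein kinase C, Ras and the MAP kinases, while Fyn and Gab2 lead to phosphoinositide 3-kinase. Csk, the Cbl proteins, the phosphatase SHIP and the Dok adaptors restrain these steps, and glucocorticoids act through a receptor that is itself a transcription factor.

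RNA-seq was done on bone marrow derived mast cells (BMMCs) of PEP+/+ and PEP-/- mice, 2 replicates for each of 4 treatments, 16 samples in all. PEP is the PEST-domain-enriched tyrosine phosphatase, encoded by Ptpn22, and the study describes the PEP-/- mice as null for it. The marrow came from male C57BL/6 mice of 8 to 10 weeks and was cultured for 4 weeks with stem cell factor and IL3. Every sample, controls included, was sensitized with IgE for 3 h, at 0.05 µg/ml by the labels, while the sources give different IgE doses. The IgE group had nothing else, the IgE DNP group had the antigen DNP on albumin at 200 ng/ml for 1 h, the IgE DEX group had dexamethasone (DEX) at 100 nM for 8 h, and the IgE DNP DEX group had both. Unsensitized cells were not analysed here. The study calls the replicates biological, but the sources do not say whether they came from separate mice or cultures, so p-values measure only the spread between these samples, which may be technical. In such bulk RNA, fewer cells of a type and less RNA per cell cannot be told apart.

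Between 8612531 and 22143526 reads per library were counted on genes. All 9 mast cell markers were above 1 CPM (reads of a gene scaled to a common library size by the TMM method) in each library, and their sum was 63100 to 104000 CPM. The sums of 3 T cell and 3 B cell markers were at most 0.275 and 0.605 CPM, with Cd3e, Cd3g and Ms4a1 at 0, and the sum of 6 macrophage markers was 2.43 to 9.08 CPM. The sum of 3 basophil markers was 228 to 882 CPM, between 750 and 882 after IgE DNP and between 228 and 392 after IgE DEX. Most of that shift lay in Cd200r3, with means of 527, 747 and 245 CPM after IgE, IgE DNP and IgE DEX. In that order Mcpt8 read 26.4, 33.1 and 23.4 CPM and Prss34 22.8, 22.8 and 23.9 CPM. The part of basophils in the results was not tested. Ptpn22 read 11.3 to 175 CPM in the PEP+/+ libraries and 0 to 3.03 CPM in the PEP-/- libraries. The labels number the first replicate of each condition and letter the second, and the 2 sets stood apart: 29 of the 44 members differed between them at an adjusted p under 0.05, with 63.6% of all genes tested. Of the members, Fgr (log2 -1.56, lettered over numbered) and Cbl (-1.27) were lower and Pik3r5 (1.44), Sphk1 (0.82) and Dok2 (0.75) higher in the lettered set. Adjusted p-values are therefore also given from a fit with the replicate set as a block wherever that fit alters a call. The log2 fold changes by agent or genotype printed beside them, with their SE, are those of the fit without the block. Calls said to be made in the blocked fit passed with the block and not without it, and other settings, such as DESeq2 or a library left out, also made some of them.

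Per length (RPKM, CPM per kilobase of exon), the members spanned from undetected to the level of abundant genes. After IgE alone, 4 members were at 100 RPKM or more, 25 between 10 and 100, 11 between 1 and 10, and 4 under 1. The highest were Rac2, the Rac GTPase of blood cells, at 408 ± 40.2 RPKM (SD, n = 4 libraries of both genotypes and sets), the scaffold Lat2 at 389.7 ± 31.7, the lipid phosphatase Inpp5d (SHIP) at 117 ± 17.6 and the scaffold Lat at 106 ± 11.6 RPKM. The lowest were Cbl at 0.318 ± 0.208, Pik3r5 at 0.0555 ± 0.0459 and Sphk1 at 0.0284 ± 0.0273 RPKM, and Fgr without a read. Within some families the order was steep. Rac2 stood above Rac1 (70.6 ± 7.92 RPKM), Btk (91.4 ± 6.84) above Tec (3.72 ± 0.647), Pik3cd (85.7 ± 5.54) above Pik3cg (17.2 ± 3.75) and Pik3ca (5.50 ± 1.07), and Lyn (36.9 ± 3.64) above Fyn (3.19 ± 0.522 RPKM), in each case with no overlap of the 4 libraries after IgE. In other families the libraries after IgE overlapped, as for Map2k1 (11.3 ± 2.97 RPKM) and Map2k2 (16.4 ± 3.45), and for Prkcb (52.9 ± 11.7) and Prkcd (63.2 ± 10.4). Across families, Mapk3 (70.3 ± 5.29 RPKM) and Prkcd lay at neighbouring levels and their ranges overlapped. Exons shared with other genes could alter some levels. Of the exon bases of Rac1, 51.4% also lie in exons of Daglb, on the opposite strand. Of those of Lat2, 36.3% lie in exons of Rfc2, also on the opposite strand. The shares were 7.98% for Plcg1, 6.32% for Lcp2, 6.09% for Lyn, 4.02% for Sphk1, 2.71% for Lat and 0.33% for Prkca. If strands were not told apart, reads on shared exons could be set aside as ambiguous, which would lower the level per length. The strand setting of the counting is not given in the sources used here.

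**Figure D1:**
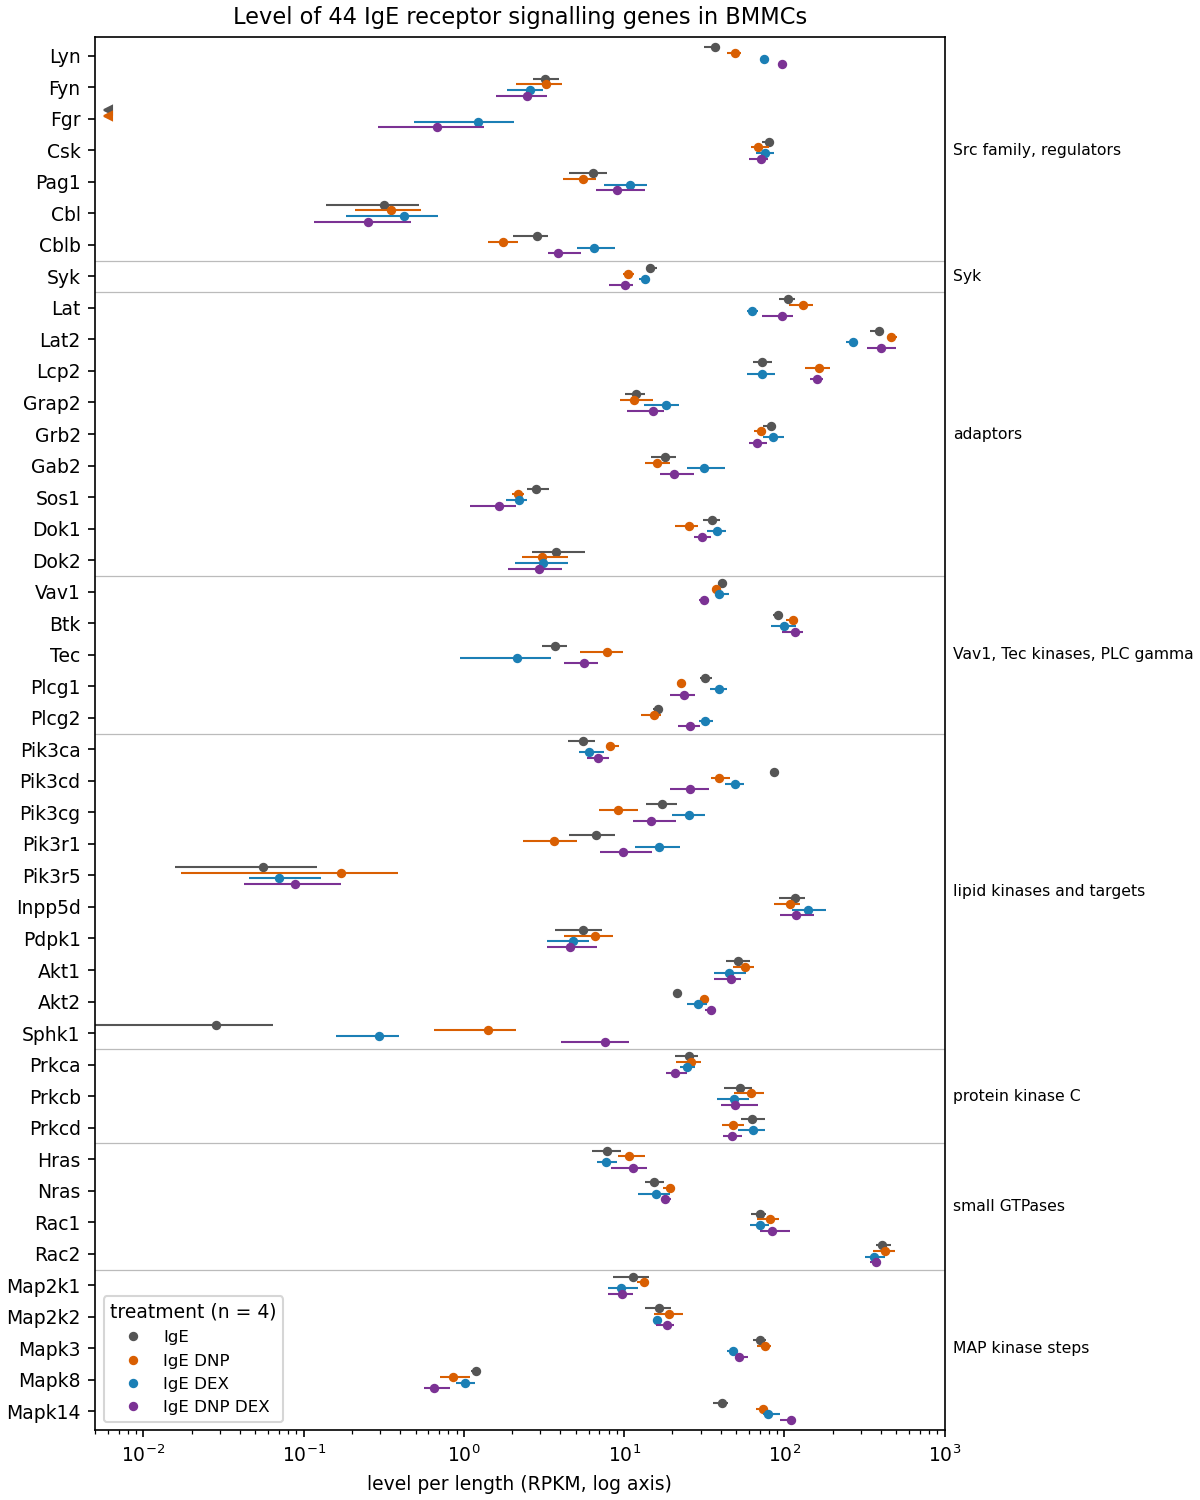
Level per length of the 44 members (rows, ordered by step of the cascade) on a log axis in RPKM, with the mean (point) and the lowest and highest library (line) of the 4 libraries of each treatment. Rac2 and Lat2 lie farthest to the right, arrowheads at the left edge mark Fgr, which had no read without DEX, and the Sphk1 line after IgE runs off the axis because 1 library had no read.

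DNP and DEX each moved part of the cascade, in both directions. By the edgeR quasi-likelihood test on all genes, at a Benjamini-Hochberg adjusted p under 0.05, DNP without DEX (IgE DNP against IgE, both genotypes, 4 libraries against 4) changed 13 of 44 members (29.5%), 7 higher and 6 lower, where 16.7% of all genes tested were called, 9.07% higher and 7.58% lower. DNP with DEX (IgE DNP DEX against IgE DEX) also changed 13, 8 higher and 5 lower, against 12.6% of all genes (7.19% higher, 5.42% lower). DEX without DNP (IgE DEX against IgE) changed 11 members (25%), 7 higher and 4 lower, against 9.37% of all genes (5.4% higher, 3.98% lower). DEX with DNP (IgE DNP DEX against IgE DNP) changed 9 (20.5%), 7 higher and 2 lower, against 10.7% of all genes (5.67% higher, 4.99% lower). The DEX counts include Fgr, which entered the test only through its DEX libraries. No test compared the list with other genes. With the replicate block the 4 counts became 20, 23, 18 and 20 members, and the share of all genes called rose to 37.9%, 37.6%, 26.7% and 33.3%. The median log2 fold change of the 44 was 0.055, -0.070, 0.015 and -0.050 in the 4 comparisons, beside -0.001, -0.025, 0.001 and -0.010 over all genes tested. Lyn, Cblb, Pik3cd, Mapk14 and Sphk1 were called in all 4 comparisons, and 22 members in none, 10 of which were not called with the block either. The shares of all genes called in all 4 or in none were not counted. Called in neither fit were 24 members by DNP without DEX (log2 -0.37, Sos1, to 1.54, Pik3r5), 21 with DEX (-0.78, Cbl, to 0.41, Pik3r5), 26 by DEX without DNP (-0.34, Sos1, to 0.41, Cbl) and 24 with DNP (-0.86, Pik3r5, to 0.16, Akt2).

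**Figure D2:**
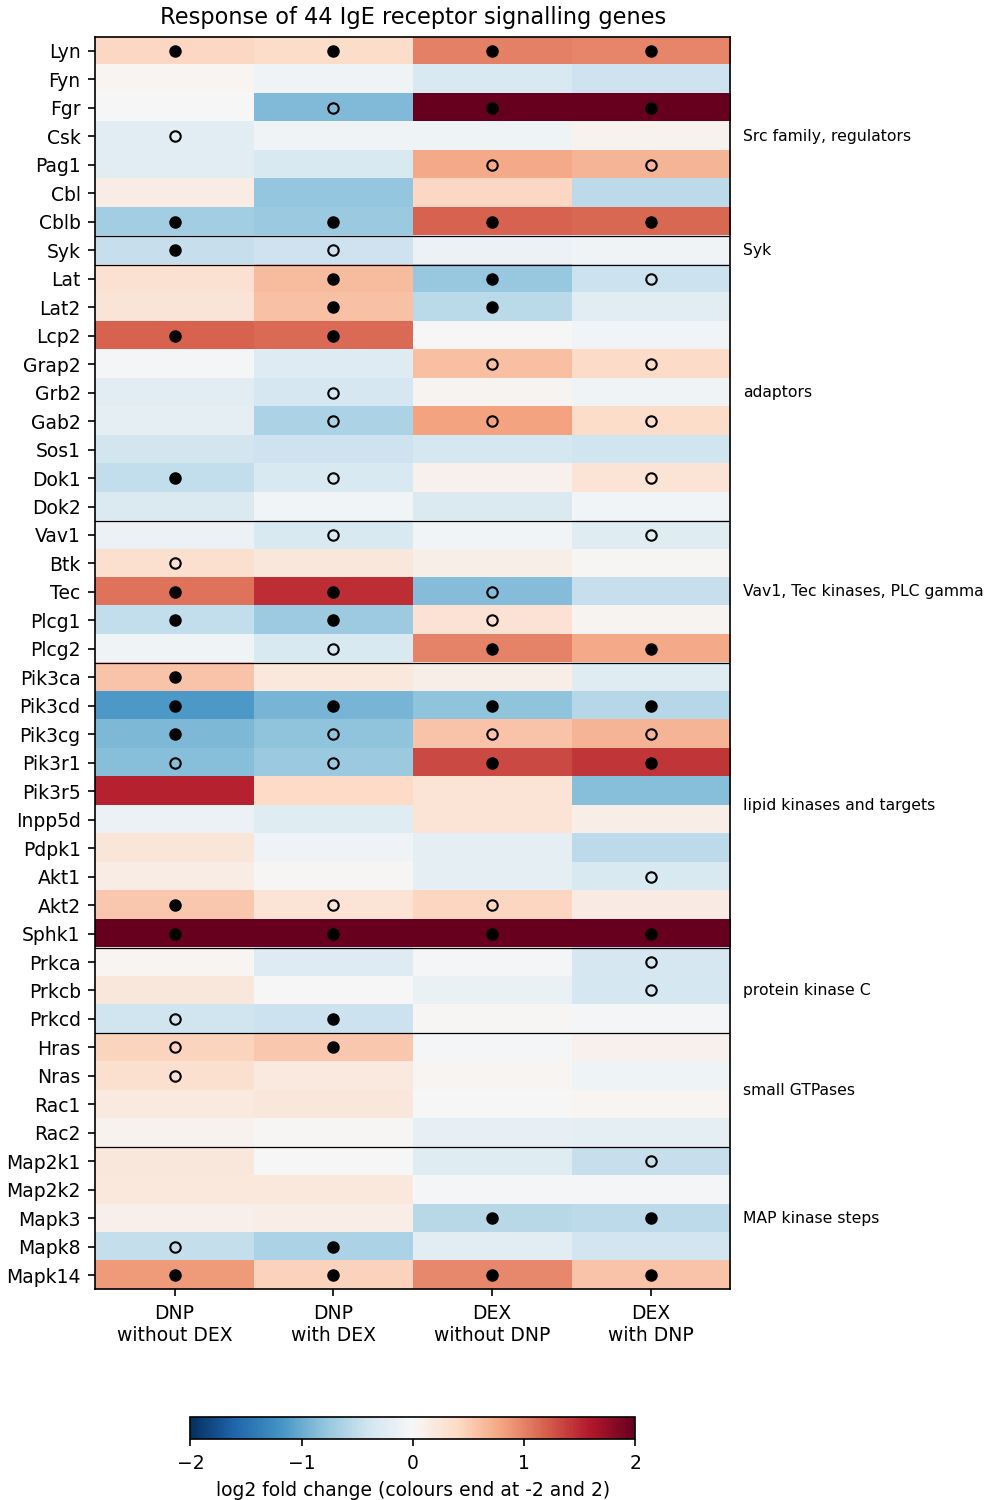
Log2 fold change of each member (rows, by step) in the 4 treatment comparisons (columns), red for higher and blue for lower, with colours ending at -2 and 2. Filled circles mark calls at an adjusted p under 0.05 and open circles calls made in the fit with the replicate block and not in that without it, and the row of Sphk1 is red in all 4 columns while that of Pik3cd is blue in all 4. Fgr had no read with or without DNP in the first column, which holds no change for it.

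Members that rose with the same agent in both of its comparisons are shown here by the bases before their start, so that the letters where genes called by the same agent begin can be read. The agents raised 7 (DEX) and 5 (DNP) members in both, and RefSeq (GRCm38.p6) windows before the start were at hand for 35 of the 44 members. Printed are those with a single window that kept a long run of bases before the first annotated exon base, the rest being cut away. Those were Fgr and Plcg2 for DEX and Lcp2 and Tec for DNP, 5′ to 3′ on the gene's strand, with matches to 3 motifs in capitals. Cblb, raised by DEX, also had a single window. It is not printed, since the window begins in an exon of Cblb. The motifs, searched on both strands, were the glucocorticoid receptor core ACANNNTGT, the AP-1 site TGANTCA and the NFAT core GGAAA, the site of the factor that calcium activates.
Fgr (chr4:132973845-132974094, plus strand): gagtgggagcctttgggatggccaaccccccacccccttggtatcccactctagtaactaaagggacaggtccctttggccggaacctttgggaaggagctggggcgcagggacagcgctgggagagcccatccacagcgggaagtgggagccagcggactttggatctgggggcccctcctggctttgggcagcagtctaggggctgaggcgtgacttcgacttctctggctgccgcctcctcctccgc
Plcg2 (chr8:117498025-117498274, plus strand): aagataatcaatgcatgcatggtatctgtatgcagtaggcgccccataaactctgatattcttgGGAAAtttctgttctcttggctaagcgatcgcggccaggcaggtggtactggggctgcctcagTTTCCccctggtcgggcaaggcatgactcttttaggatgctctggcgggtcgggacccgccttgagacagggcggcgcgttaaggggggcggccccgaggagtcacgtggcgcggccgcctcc
Lcp2 (chr11:34046678-34046919, plus strand): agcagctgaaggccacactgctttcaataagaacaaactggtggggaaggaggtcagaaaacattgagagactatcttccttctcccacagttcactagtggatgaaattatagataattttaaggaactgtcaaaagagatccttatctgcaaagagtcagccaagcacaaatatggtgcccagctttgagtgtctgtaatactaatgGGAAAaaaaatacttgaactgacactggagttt
Tec (chr5:72868484-72868698, minus strand): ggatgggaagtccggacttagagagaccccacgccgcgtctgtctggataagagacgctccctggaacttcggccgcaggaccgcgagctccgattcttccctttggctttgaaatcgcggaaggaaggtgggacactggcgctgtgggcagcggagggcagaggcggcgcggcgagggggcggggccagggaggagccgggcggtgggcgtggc
The capitals in Plcg2 and Lcp2 are NFAT cores, 2 and 1 in number and not overlapping, and no glucocorticoid receptor core or AP-1 site lay in the 4 stretches. Among all 32851 windows of 250 bases, 5.84% held the glucocorticoid receptor core, 6.75% the AP-1 site and 55.6% the NFAT core. Over the 54 windows of the members the shares were 1.85%, 5.56% and 64.8%. A match is a description of letters, and its absence says only that they are not in the window.

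Among the Src family kinases and their regulators, DEX raised Lyn, Fgr and the ubiquitin ligase Cblb, and DNP raised Lyn and lowered Cblb. Lyn (ENSMUSG00000042228, chr4:3678115-3813122, plus strand), the kinase that phosphorylates the receptor, read 129 to 161 CPM in the IgE libraries, 178 to 218 CPM under IgE DNP, 290.2 to 327 CPM under IgE DEX and 379 to 407 CPM with both agents. The 4 ranges did not overlap. DNP raised Lyn by a log2 fold change of 0.41 ± 0.10, edgeR adjusted p = 0.019, and in the presence of DEX by 0.37 ± 0.10, edgeR adjusted p = 0.038. Errors of log2 fold changes are SE, and those of CPM and RPKM are SD (n = 4 unless given). DEX raised it by 1.02 ± 0.11, edgeR adjusted p = 9.72e-05, and with DNP by 0.98 ± 0.10, edgeR adjusted p = 0.000151. The DEX change of Lyn was 1.05 in PEP+/+ and 0.98 in PEP-/- BMMCs.

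Fgr, a Src family kinase known from myeloid cells (ENSMUSG00000028874, chr4:132974095-133001910, plus strand), had no read in any of the 8 libraries without DEX. Fgr read 0 and 0 CPM in the PEP+/+ IgE libraries, 0 and 0 in those of IgE DNP, 5.93 and 1.89 in those of IgE DEX and 2.86 and 1.12 in those of IgE DNP DEX. The PEP-/- Fgr values in that order were 0 and 0, 0 and 0, 7.99 and 3.05 and 5.16 and 1.33 CPM. Each library with DEX held reads, 320 in all under IgE DEX and 120 with both agents. Against a floor of 3 counts over the group, Fgr was at least 87.3-fold higher with DEX alone and at least 43.5-fold higher with DEX and DNP. These are given as a description, since Fgr was admitted to the test by the libraries in which it is high. Its level stayed low, 1.22 ± 0.715 RPKM after IgE DEX, against 74.5 ± 4.07 RPKM of Lyn. Between the groups with DEX, Fgr was called lower with DNP in the blocked fit (-0.88, adjusted p = 0.449 without the block and 0.0105 with it). In the same libraries the macrophage marker sum was 2.43 to 6.37 CPM after IgE and 2.48 to 7.73 CPM after IgE DEX, with C1qa at 0 throughout. The sum of 6 neutrophil markers was 0 to 2.35 CPM after IgE and 0.102 to 1.71 CPM after IgE DEX, with Camp at 0 throughout. Ly6g, at up to 2.28 CPM, made up most of this sum. The highest library was at 0.195 CPM for S100a8, 0.26 for S100a9, 0.156 for Elane and 0.113 for Mpo. By set, the neutrophil sum was 1.15 to 2.35 CPM in the numbered and 0 to 0.257 CPM in the lettered libraries, and in every DEX condition the numbered library had the higher Fgr value. The part of such cells in the Fgr result was not tested.

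Cblb, a ubiquitin ligase that restrains receptor signalling (ENSMUSG00000022637, chr16:52031225-52208048, plus strand), moved in opposite directions with the agents. It read 21.2 to 34.9 CPM in the IgE libraries, 14.7 to 22.8 CPM under IgE DNP, 53.0 to 91.9 CPM under IgE DEX and 35.2 to 56.3 CPM with both agents. Every DEX library lay above every library of the same DNP status without DEX, while the ranges with and without DNP overlapped. DEX raised Cblb by 1.19 ± 0.21, edgeR adjusted p = 0.00362, and with DNP by 1.15 ± 0.21, edgeR adjusted p = 0.00461. DNP lowered it (log2 -0.70 ± 0.21, edgeR adjusted p = 0.038), and with DEX likewise (log2 -0.74 ± 0.20, edgeR adjusted p = 0.0361), and each of the 4 same-numbered pairs was lower in either case. Csk read 307 and 270.2 CPM in the PEP+/+ IgE libraries, 255 and 233 in those of IgE DNP, 288 and 249 in those of IgE DEX and 296 and 254 in those of IgE DNP DEX. The PEP-/- Csk values in that order were 307 and 313, 299 and 233, 324 and 264 and 293 and 226 CPM. The groups overlapped for Csk, the kinase that holds Src kinases inactive, and the blocked fit called it lower with DNP (-0.23, adjusted p = 0.343 without the block and 0.0486 with it). Pag1, the membrane anchor of Csk, was called higher with DEX in the blocked fit, from 61.6 ± 14.5 CPM to 105 ± 27.9 CPM without DNP (0.76, adjusted p = 0.108 without the block and 0.00133 with it) and from 52.9 ± 10.3 CPM to 86.4 ± 29.6 CPM with it (0.68, adjusted p = 0.136 without the block and 0.00241 with it). Fyn, the kinase that feeds Gab2, stood at 13.9 ± 2.28 CPM after IgE and Cbl, the close relative of Cblb, at 3.93 ± 2.57 CPM, and neither was called in any treatment comparison.

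**Figure D3:**
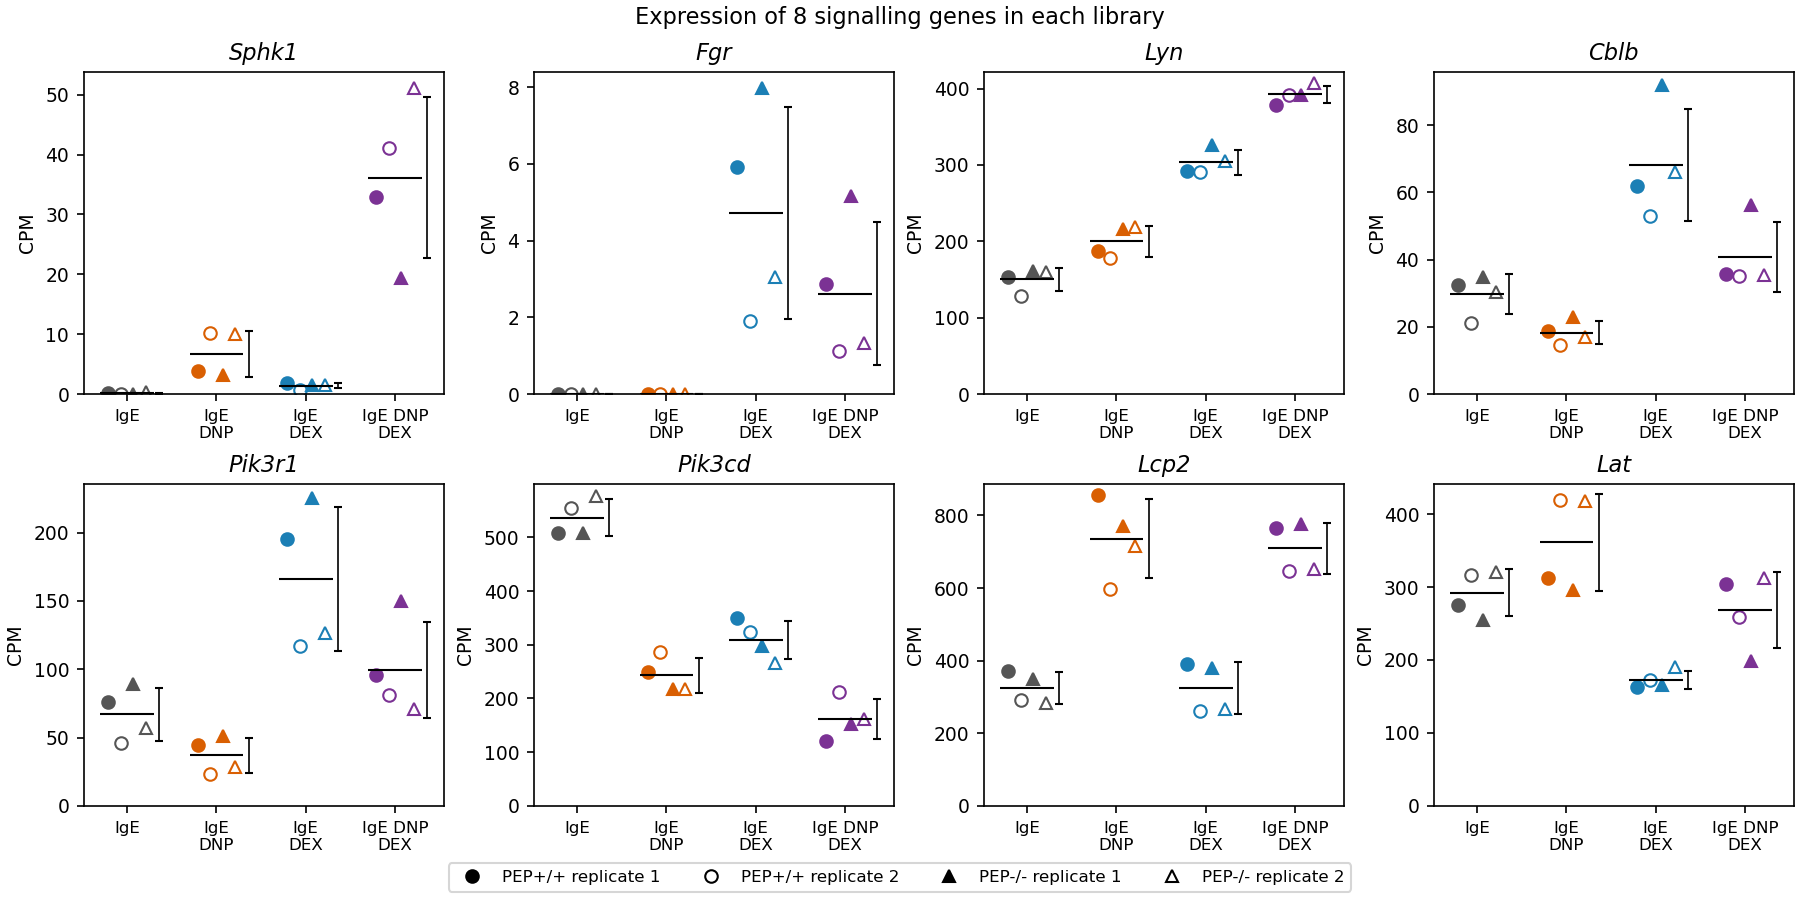
Expression in CPM of 8 members in each of the 16 libraries by treatment, with filled symbols for replicate 1, open symbols for replicate 2, circles for PEP+/+ and triangles for PEP-/-. Horizontal lines are means and bars beside them SD (n = 4), and Lyn steps up from 150.4 ± 14.8 CPM after IgE to 392 ± 11.6 CPM after IgE DNP DEX while Pik3cd steps down from 536 ± 34.6 CPM to 162 ± 37.6 CPM.

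Syk, the kinase that carries the signal from the receptor to LAT, was lower with DNP. Syk read 132 and 129 CPM in the PEP+/+ IgE libraries, 92.4 and 94.1 in those of IgE DNP, 115 and 132 in those of IgE DEX and 74.9 and 106 in those of IgE DNP DEX. The PEP-/- Syk values in that order were 134 and 149.8, 108 and 102, 130 and 127 and 105 and 93.4 CPM. All 4 libraries after IgE DNP lay below all 4 after IgE, and the change was -0.46 ± 0.13, edgeR adjusted p = 0.029. With DEX present the libraries again did not overlap, at 94.8 ± 14.4 CPM against 126 ± 7.37 CPM, and the call was made in the blocked fit (-0.41, adjusted p = 0.0546 without the block and 0.00697 with it). DEX itself gave -0.11 ± 0.13, edgeR adjusted p = 0.783 without DNP and -0.065 ± 0.13, edgeR adjusted p = 0.836 with it.

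Of the 9 adaptors and scaffolds, DNP raised Lcp2 and lowered Dok1, DNP under DEX raised Lcp2, Lat and Lat2, and DEX lowered Lat and Lat2. Lcp2 encodes an adaptor that joins phospholipase C gamma and Vav1 to LAT (ENSMUSG00000002699, chr11:34046920-34092295, plus strand). It read 284 to 372 CPM in the IgE libraries, 261 to 391 CPM under IgE DEX, 597 to 856 CPM under IgE DNP and 647 to 775 CPM with both agents. Every library with DNP lay above every library without it. The DNP change was 1.18 ± 0.19, edgeR adjusted p = 0.00158, and with DEX 1.13 ± 0.19, edgeR adjusted p = 0.00308, while DEX gave 0.001 ± 0.19, edgeR adjusted p = 1 without DNP. By genotype the DNP change was 1.13 in PEP+/+ and 1.23 in PEP-/- BMMCs.

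The transmembrane scaffolds Lat and Lat2 moved in the same directions. Lat was 292 ± 32.2 CPM in the IgE libraries, 361 ± 66.4 CPM under IgE DNP, 173 ± 12.4 CPM under IgE DEX and 269 ± 52.0 CPM with both agents. DEX lowered Lat (log2 -0.76 ± 0.18, edgeR adjusted p = 0.0232), and with DNP the call was made in the blocked fit (-0.43, adjusted p = 0.177 without the block and 0.0173 with it). DNP raised Lat under DEX by 0.64 ± 0.18, edgeR adjusted p = 0.0423, whereas without DEX the value was 0.31 ± 0.18, edgeR adjusted p = 0.328. Lat2 read 1075 and 898 CPM in the PEP+/+ IgE libraries, 1167 and 1150 in those of IgE DNP, 682 and 638 in those of IgE DEX and 1310 and 858 in those of IgE DNP DEX. The PEP-/- Lat2 values in that order were 1054 and 1059, 1226 and 1320, 736 and 746 and 941 and 1105 CPM. DEX lowered Lat2 (log2 -0.55 ± 0.15, edgeR adjusted p = 0.0391), and DNP raised it under DEX by 0.59 ± 0.15, edgeR adjusted p = 0.0238. Without DEX the DNP value of Lat2 was 0.25 ± 0.15, edgeR adjusted p = 0.321, and the difference between both DNP changes was not called for either scaffold (Lat 0.33 ± 0.26, edgeR adjusted p = 1, Lat2 0.34 ± 0.21, edgeR adjusted p = 1).

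Dok1, an adaptor that restrains Ras, was lower with DNP, 50.1 ± 6.79 CPM against 70.1 ± 7.59 CPM after IgE (-0.49 ± 0.14, edgeR adjusted p = 0.0293). In the blocked fit it was also called lower with DNP under DEX (-0.31, adjusted p = 0.173 without the block and 0.0134 with it) and higher with DEX under DNP (0.27, adjusted p = 0.255 without the block and 0.0317 with it). Gab2, which recruits phosphoinositide 3-kinase, and Grap2 (Gads), which brings the Lcp2 product to LAT, were called higher with DEX in the blocked fit. Gab2 went from 111 ± 20.1 CPM to 196 ± 51.5 CPM (0.81, adjusted p = 0.0554 without the block and 0.000526 with it) and Grap2 from 74.4 ± 9.40 CPM to 113 ± 22.8 CPM (0.61, adjusted p = 0.088 without the block and 0.00231 with it). With DNP present the DEX values were, without and with the block, Gab2 (0.36, 0.41 and 0.0485) and Grap2 (0.39, 0.269 and 0.0265), and under DEX the blocked fit called Gab2 and Grb2, the bridge to Sos, lower with DNP, Gab2 (-0.63, 0.11 and 0.00388) and Grb2 (-0.33, 0.141 and 0.00595). Sos1 read 30.9 and 26.1 CPM in the PEP+/+ IgE libraries, 23.9 and 21.8 in those of IgE DNP, 26.3 and 22.8 in those of IgE DEX and 11.6 and 19.2 in those of IgE DNP DEX. The PEP-/- Sos1 values in that order were 36.2 and 26.4, 21.3 and 25.2, 25.4 and 19.5 and 22.4 and 17.4 CPM. Sos1, the exchange factor for Ras, had the lowest level per length of the adaptors and was called in no treatment comparison, as was Dok2 (3.78 ± 1.36 RPKM after IgE).

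At the step of Vav1, the Tec kinases and the phospholipases, DNP raised Tec and lowered Plcg1, and DEX raised Plcg2. Tec read 15.6 and 16.4 CPM in the PEP+/+ IgE libraries, 26.7 and 37.0 in those of IgE DNP, 13.0 and 8.62 in those of IgE DEX and 17.1 and 25.7 in those of IgE DNP DEX. The PEP-/- Tec values in that order were 11.6 and 12.1, 19.8 and 33.3, 6.90 and 3.56 and 15.8 and 25.7 CPM. All DNP libraries lay above all libraries without DNP of the same DEX status. Tec rose with DNP by 1.08 ± 0.27, edgeR adjusted p = 0.0188, and under DEX by 1.48 ± 0.28, edgeR adjusted p = 0.00538. DEX without DNP was called lower for Tec in the blocked fit (-0.86, adjusted p = 0.0834 without the block and 0.018 with it). Btk read 306 and 267 CPM in the PEP+/+ IgE libraries, 371 and 324 in those of IgE DNP, 372 and 277 in those of IgE DEX and 411 and 335 in those of IgE DNP DEX. The PEP-/- Btk values in that order were 307 and 271, 383 and 355, 339 and 261 and 407 and 304 CPM. Btk, the more abundant Tec family kinase, was called higher with DNP in the blocked fit (0.32, adjusted p = 0.23 without the block and 0.0109 with it).

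Plcg1 and Plcg2, the phospholipases that release calcium through inositol trisphosphate, moved with DNP and with DEX respectively. Plcg1 read 235 to 278 CPM in the IgE libraries, 269.6 to 344 CPM under IgE DEX, 169 to 188 CPM under IgE DNP and 152 to 217 CPM with both agents. DNP lowered Plcg1 (log2 -0.49 ± 0.11, edgeR adjusted p = 0.0101), and under DEX likewise (log2 -0.73 ± 0.11, edgeR adjusted p = 0.00133). DEX raised Plcg2 from 69.4 ± 3.08 CPM to 138 ± 13.1 CPM (0.99 ± 0.14, edgeR adjusted p = 0.000984) and, with DNP, from 66.0 ± 8.05 CPM to 111 ± 15.1 CPM (0.75 ± 0.14, edgeR adjusted p = 0.00565). The libraries with and without DEX did not overlap for Plcg2. In the blocked fit, Plcg1 was called higher with DEX (0.29, adjusted p = 0.156 without the block and 0.0247 with it) and Plcg2 lower with DNP under DEX (-0.31, adjusted p = 0.185 without the block and 0.0289 with it). Vav1, the exchange factor for Rac, was called lower in the blocked fit in 2 comparisons, DNP under DEX (-0.31, adjusted p = 0.0917 without the block and 0.00739 with it) and DEX with DNP (-0.25, adjusted p = 0.19 without the block and 0.0262 with it).

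The lipid kinases and their targets held both the member with the greatest rise by DNP, Sphk1, and the member with the greatest called fall in each comparison, Pik3cd. Sphk1 makes sphingosine 1-phosphate, a lipid that mast cells secrete (ENSMUSG00000061878, chr11:116530925-116536674, plus strand). Sphk1 read 0.147 and 0.0867 CPM in the PEP+/+ IgE libraries, 3.78 and 10.1 in those of IgE DNP, 1.89 and 0.757 in those of IgE DEX and 32.9 and 41.1 in those of IgE DNP DEX. The PEP-/- Sphk1 values in that order were 0 and 0.309, 3.12 and 9.96, 1.50 and 1.53 and 19.4 and 51.2 CPM. The reads behind the PEP+/+ and PEP-/- values after IgE were 2, 1, 0 and 6. All DNP libraries lay above all libraries without DNP, and the libraries with both agents lay above all others. DNP raised Sphk1 by 5.41 ± 0.72, edgeR adjusted p = 0.000379, and under DEX by 4.69 ± 0.57, edgeR adjusted p = 0.000323. DEX raised it by 3.15 ± 0.77, edgeR adjusted p = 0.0241, and with DNP by 2.42 ± 0.51, edgeR adjusted p = 0.0106. Because so few reads stood in the IgE libraries, the changes against IgE depend on the prior count of the fit and on 1 library: without PEP-/- IgE replicate 2, which held 6 of the 9 reads, they were 7.61 for DNP and 5.35 for DEX. Over all alternatives they ran from 4.87 to 7.61 and from 2.77 to 5.35, and the DEX call was lost when PEP+/+ IgE replicate 1 or 2, PEP-/- IgE replicate 1, PEP+/+ IgE DEX replicate 1 or either PEP-/- IgE DEX replicate was left out (edgeR adjusted p up to 0.0873). After both agents the level was 7.57 ± 2.82 RPKM. The DNP changes of Sphk1 with and without DEX differed by -0.73 ± 0.90, edgeR adjusted p = 1.

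Pik3cd, the delta catalytic subunit of phosphoinositide 3-kinase (ENSMUSG00000039936, chr4:149649168-149702571, minus strand), fell with either agent. Pik3cd read 507 and 554 CPM in the PEP+/+ IgE libraries, 249.9 and 286 in those of IgE DNP, 349 and 323 in those of IgE DEX and 121 and 212 in those of IgE DNP DEX. The PEP-/- Pik3cd values in that order were 508 and 576, 218 and 218, 298 and 267 and 152 and 162 CPM. DNP lowered it (log2 -1.15 ± 0.16, edgeR adjusted p = 0.000593), and under DEX likewise (log2 -0.93 ± 0.16, edgeR adjusted p = 0.00347). DEX lowered it (log2 -0.80 ± 0.16, edgeR adjusted p = 0.00897), and with DNP likewise (log2 -0.58 ± 0.16, edgeR adjusted p = 0.0431). The libraries did not overlap in any of the 4 comparisons, and IgE DNP DEX libraries were the lowest in each genotype. Its regulatory partner Pik3r1 went the other way with DEX, from 67.0 ± 19.2 CPM to 166 ± 52.8 CPM (1.31 ± 0.34, edgeR adjusted p = 0.0341) and from 37.0 ± 12.9 CPM to 99.5 ± 34.9 CPM with DNP (1.42 ± 0.35, edgeR adjusted p = 0.0231). The block called Pik3r1 lower with DNP as well (-0.86, adjusted p = 0.125 without the block and 3.76e-05 with it, and under DEX -0.75, adjusted p = 0.189 without the block and 0.000196 with it).

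Pik3cg, the gamma subunit that couples to G protein receptors, fell with DNP from 145 ± 31.6 CPM to 77.5 ± 20.5 CPM (-0.90 ± 0.27, edgeR adjusted p = 0.0413). Under DEX the fall by DNP was called in the blocked fit (-0.80, adjusted p = 0.0779 without the block and 0.000755 with it), as were its rises with DEX (0.57, adjusted p = 0.278 without the block and 0.00788 with it, and with DNP 0.67, adjusted p = 0.152 without the block and 0.00191 with it). Pik3ca, the alpha subunit, rose with DNP from 50.0 ± 9.72 CPM to 74.2 ± 6.74 CPM (0.57 ± 0.17, edgeR adjusted p = 0.0455), and under DEX the value was 0.21 ± 0.17, edgeR adjusted p = 0.519. Pik3r5, a regulatory subunit of Pik3cg, had at most 2.15 CPM in any library and was not called. Akt2, a kinase activated by these lipids, rose with DNP from 153 ± 7.31 CPM to 223 ± 12.7 CPM (0.55 ± 0.13, edgeR adjusted p = 0.012). In the blocked fit Akt2 was also called higher with DNP under DEX (0.28, adjusted p = 0.19 without the block and 0.025 with it) and with DEX (0.43, adjusted p = 0.0581 without the block and 0.00295 with it), and Akt1 lower with DEX under DNP (-0.30, adjusted p = 0.318 without the block and 0.0111 with it). Inpp5d read 883 and 702 CPM in the PEP+/+ IgE libraries, 827 and 651 in those of IgE DNP, 1022 and 848 in those of IgE DEX and 718 and 864 in those of IgE DNP DEX. The PEP-/- Inpp5d values in that order were 1016 and 941, 951 and 849.5, 1380 and 1029 and 1171 and 843 CPM. Inpp5d, which removes the lipid product of the kinases, and Pdpk1, which activates Akt (60.4 ± 22.0 CPM after IgE), were called in no treatment comparison.

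Of the 3 protein kinase C genes, Prkcd alone was called without the block, in 1 comparison. Prkcd read 311 and 297 CPM in the PEP+/+ IgE libraries, 225 and 250.1 in those of IgE DNP, 283 and 359 in those of IgE DEX and 230 and 242 in those of IgE DNP DEX. The PEP-/- Prkcd values in that order were 371 and 422, 281 and 309, 355 and 421 and 276 and 303 CPM. Prkcd was lower with DNP under DEX (-0.43 ± 0.12, edgeR adjusted p = 0.0413), and without DEX the call was made in the blocked fit (-0.39, adjusted p = 0.0518 without the block and 0.00257 with it). Prkca read 253 and 188 CPM in the PEP+/+ IgE libraries, 272 and 189 in those of IgE DNP, 233 and 201 in those of IgE DEX and 165 and 187 in those of IgE DNP DEX. The PEP-/- Prkca values in that order were 262 and 207, 258 and 219.5, 248 and 206 and 222 and 170.3 CPM. Prkca and Prkcb were called lower with DEX under DNP in the blocked fit, -0.34, adjusted p = 0.269 without the block and 0.0312 with it for Prkca and -0.36, adjusted p = 0.429 without the block and 0.0168 with it for Prkcb.

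Among the small GTPases, Hras rose with DNP under DEX and no other call was made without the block. Hras read 28.9 and 35.8 CPM in the PEP+/+ IgE libraries, 37.1 and 50.6 in those of IgE DNP, 30.8 and 33.7 in those of IgE DEX and 52.2 and 42.7 in those of IgE DNP DEX. The PEP-/- Hras values in that order were 23.4 and 29.2, 34.4 and 37.2, 25.4 and 25.8 and 31.1 and 43.3 CPM. The change of Hras was 0.55 ± 0.16, edgeR adjusted p = 0.0485, and without DEX the call was made in the blocked fit (0.44, adjusted p = 0.0939 without the block and 0.00927 with it), as for Nras (0.31, adjusted p = 0.238 without the block and 0.0133 with it). Rac2 read 1152 and 1200 CPM in the PEP+/+ IgE libraries, 1112 and 1343 in those of IgE DNP, 1061 and 985 in those of IgE DEX and 1206 and 1059 in those of IgE DNP DEX. The PEP-/- Rac2 values in that order were 1272 and 1437, 1322 and 1516, 1320 and 1158 and 1238 and 1092 CPM. Rac2 and Rac1, which drive the actin changes of degranulation, were called in no treatment comparison, with log2 fold changes between -0.20 and 0.23.

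At the MAP kinase steps, Mapk14 (p38 alpha) rose with both agents, Mapk3 (ERK1) fell with DEX and Mapk8 (JNK1) fell with DNP under DEX. Mapk14 (ENSMUSG00000053436, chr17:28691329-28748406, plus strand) read 158 to 193 CPM in the IgE libraries, 292 to 339 CPM under IgE DNP, 323 to 411 CPM under IgE DEX and 412 to 518 CPM with both agents. Each treated library lay above every IgE library, and the ranges with DNP alone and DEX alone overlapped. DNP raised it by 0.85 ± 0.13, edgeR adjusted p = 0.000754, and under DEX by 0.46 ± 0.13, edgeR adjusted p = 0.0337. DEX raised it by 0.97 ± 0.13, edgeR adjusted p = 0.000539, and with DNP by 0.57 ± 0.13, edgeR adjusted p = 0.0133. Mapk3 read 154 and 145 CPM in the PEP+/+ IgE libraries, 153 and 167 in those of IgE DNP, 112 and 103 in those of IgE DEX and 134 and 117 in those of IgE DNP DEX. The PEP-/- Mapk3 values in that order were 164 and 172, 174 and 186, 116 and 98.6 and 113 and 110.2 CPM. Mapk3 fell with DEX (log2 -0.56 ± 0.11, edgeR adjusted p = 0.0066), and with DNP likewise (log2 -0.52 ± 0.11, edgeR adjusted p = 0.00987), and each library with DEX lay below each library without it. Mapk8 read 14.6 and 13.3 CPM in the PEP+/+ IgE libraries, 12.6 and 9.90 in those of IgE DNP, 10.2 and 13.4 in those of IgE DEX and 7.29 and 9.43 in those of IgE DNP DEX. The PEP-/- Mapk8 values in that order were 12.8 and 13.5, 8.12 and 8.53, 11.9 and 10.7 and 6.65 and 6.47 CPM. Mapk8 fell with DNP under DEX (log2 -0.64 ± 0.16, edgeR adjusted p = 0.0248), and without DEX the call was made in the blocked fit (-0.48, adjusted p = 0.062 without the block and 0.0122 with it). Map2k1 (MEK1) was called lower with DEX under DNP in the blocked fit (-0.47, adjusted p = 0.207 without the block and 0.004 with it), and Map2k2 (MEK2), at 93.1 ± 19.5 CPM after IgE, was called in neither fit.

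Most members had changes of like sign with and without the other agent. Over 42 members, without Sphk1 and Fgr, the log2 fold changes by DNP without and with DEX, which share no library, had a Pearson r of 0.851 and the same sign in 38. For DEX without and with DNP, which likewise share no library, r was 0.840 and the sign the same in 33 of 42. Genes are not independent replicates, and all members of a comparison share its libraries, so these are descriptions. A group of 8 members had the same call by DNP with and without DEX (Lyn, Lcp2, Tec, Mapk14 and Sphk1 higher, Plcg1, Pik3cd and Cblb lower), and 9 the same call by DEX with and without DNP (Lyn, Fgr, Plcg2, Pik3r1, Mapk14, Cblb and Sphk1 higher, Pik3cd and Mapk3 lower). The share of all genes with the same call in both was not counted, so these counts do not set the members apart from other genes. Fgr had no read without DEX, so it could not be called by DNP without DEX, between genotypes or in an interaction. The counts of 44 members still include it. The DNP by DEX interaction, tested with edgeR, called 0 of 44 members, where 0.331% of all genes were called, and 1.57% with the block, which also called 0 members. At an unadjusted p under 0.05 there was 1 member, Mapk14, whose rise by DNP was smaller with DEX (difference -0.39 ± 0.18, edgeR adjusted p = 1), and DESeq2 called 0.

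**Figure D4:**
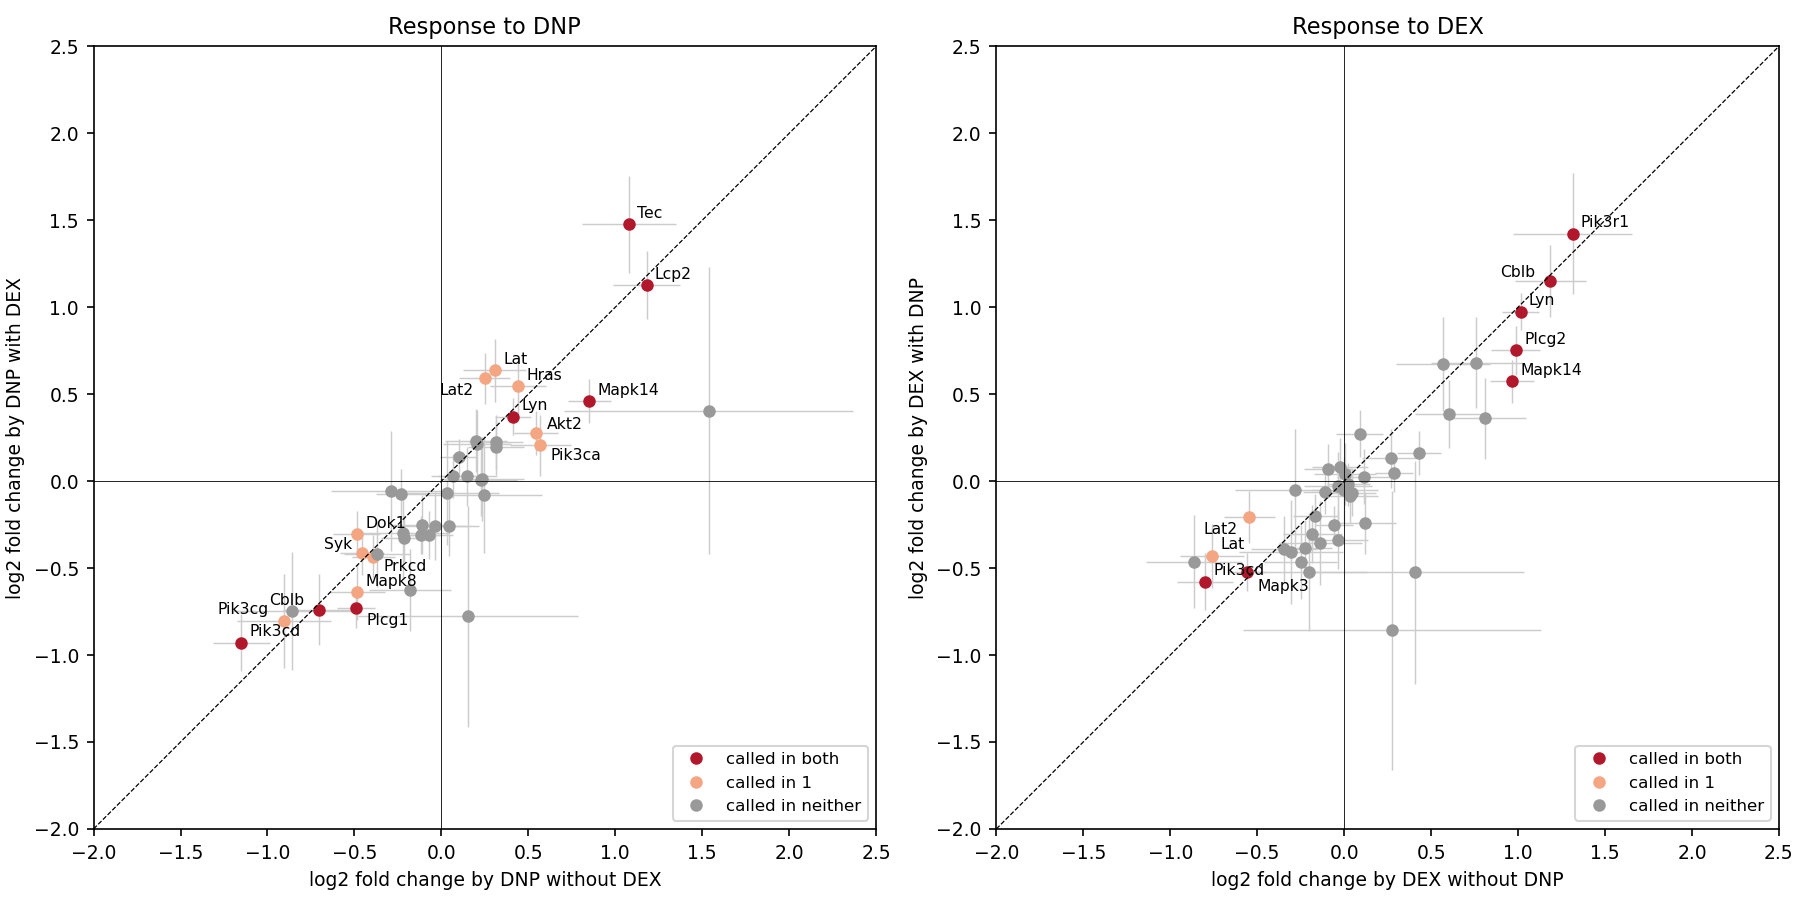
Log2 fold change of 42 members by DNP without DEX (x axis) and with DEX (y axis) on the left, and by DEX without and with DNP on the right, with SE bars, the dashed line marking equal change. Sphk1, beyond the axes, and Fgr, without a read in the absence of DEX, are left out, and the members called in both comparisons (dark red) lie near the line in the same quadrant.

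Between genotypes, edgeR called 0 of the 44 members in the mean over the 4 treatments (8 PEP-/- libraries against 8 PEP+/+), where 1.59% of all genes were called. At an unadjusted p under 0.05 there were 5 members, and the share of all genes at that level was not counted, here or for the interactions. DESeq2 called 1 member, Prkcd, where it called 707 of 13305 genes. With the replicate block 6 members were called, with 17.4% of all genes, and 38 were called in neither fit (-0.44, Tec, to 0.87, Pik3r5). The members with that call, with the adjusted p without and with the block, were Prkcd (0.32 ± 0.087, 0.103 and 0.00349, 8 of 8 pairs higher in PEP-/-), Cblb (0.34 ± 0.14, 0.314 and 0.0101, 8 of 8 pairs higher in PEP-/-), Inpp5d (0.33 ± 0.12, 0.221 and 0.0158, 7 of 8 pairs higher in PEP-/-), Grap2 (0.28 ± 0.14, 0.408 and 0.0356, 8 of 8 pairs higher in PEP-/-), Hras (-0.32 ± 0.11, 0.213 and 0.0185, 1 of 8 pairs higher in PEP-/-) and Akt1 (-0.21 ± 0.12, 0.482 and 0.019, 0 of 8 pairs higher in PEP-/-). Prkcd was 342 ± 59.1 CPM in PEP-/- and 275 ± 46.4 CPM in PEP+/+ BMMCs (SD, n = 8), with overlapping ranges, as for all 44 members. Each SD spans 4 treatments and both replicate sets. The 8 pairs are likewise 4 treatments of the same 2 sets, whose samples deviated together, so they are not 8 independent replicates of genotype. P-values between genotypes take the 8 libraries of a genotype as separate samples. The share of all genes with 8 pairs of like sign was not counted. Tec was lower in PEP-/- in all 8 same-numbered pairs and Lyn and Rac2 higher in all 8, without a call in either fit (Tec -0.44 ± 0.19, edgeR adjusted p = 0.325, Lyn 0.15 ± 0.073, edgeR adjusted p = 0.405, Rac2 0.18 ± 0.090, edgeR adjusted p = 0.409). Nras lies 792 kb from Ptpn22 on chromosome 3, and its difference was -0.004 ± 0.11, edgeR adjusted p = 0.997. The change by DNP without DEX and the change by DEX with DNP were compared between genotypes. Either interaction had 0 calls with edgeR among the members and 0% of all genes, with and without the block, and 0 members with DESeq2. The count at an unadjusted p under 0.05 was 0 in both, and 1 for DEX with the block. For Lyn the genotype difference in the DNP change was 0.065 ± 0.21 and for Pik3cd -0.33 ± 0.32 (edgeR adjusted p = 1 for both).

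**Figure D5:**
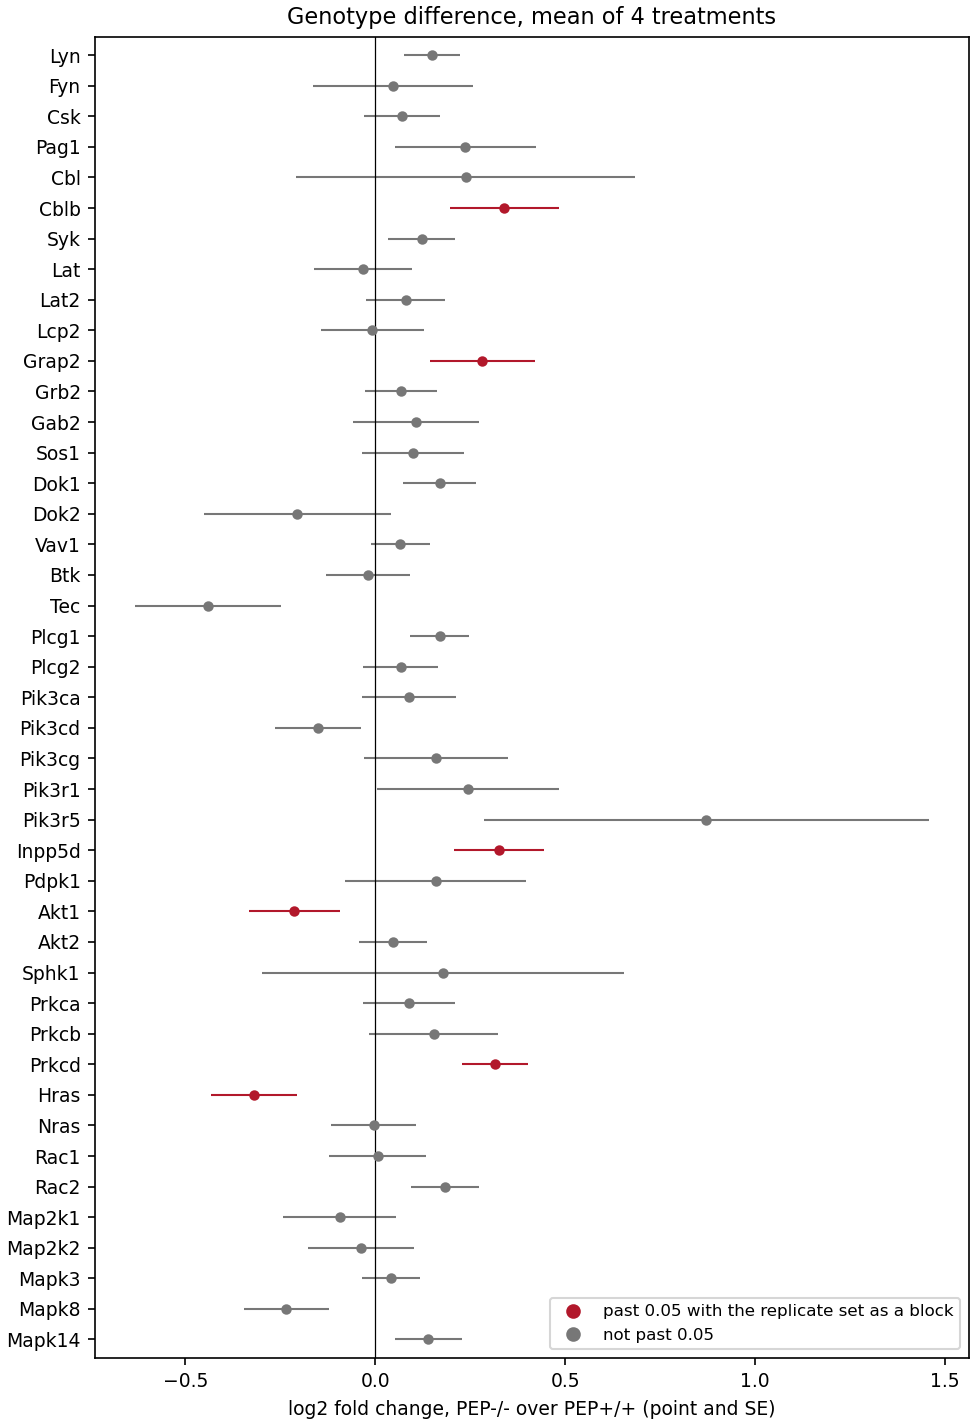
Log2 fold change of PEP-/- over PEP+/+ for 43 members, mean of 4 treatments, with SE from the fit without the block. Fgr is left out because its PEP difference could not be estimated with 8 libraries at 0, and the 6 members in red passed an adjusted p of 0.05 with the replicate set as a block and not without it.

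A further 49 genes of the same pathway, of which 48 could be tested, were counted beside the members, since they hold the receptor chains and the steps left out above. DNP changed 7 of them without DEX (14.6%, 4 higher, 3 lower) and 8 with DEX (16.7%, 4 and 4), where 16.7% and 12.6% of all genes were called. Called without DEX were, with log2 fold change and edgeR adjusted p, among others Map2k3 (2.23, 3.38e-06) and Orai1 (1.58, 8.32e-05) upward and Rasgrp1 (-1.72, 0.000127) and Map3k1 (-0.78, 0.0164) downward. With DEX they included Map2k3 (1.93, 2.02e-05) upward and Rasgrp1 (-1.85, 0.000125), Map3k1 (-0.80, 0.0166) and Mtor (-0.70, 0.00766) downward. Map2k3 activates p38, Orai1 is the store-operated calcium channel and Rasgrp1 a Ras exchange factor. DEX changed 9 without DNP (18.8%, 6 and 3) and 10 with it (20.8%, 5 and 5), where 9.37% and 10.7% of all genes were called, among them Prkch (4.04, 0.00621) and Map2k6 (2.16, 0.00246) upward and Vav2 (-1.14, 0.0201) and Ptpn6 (-0.45, 0.0184) downward without DNP. With DNP they included Prkch (5.41, 0.00464) and Prkcq (1.31, 0.00145) upward and Vav2 (-1.24, 0.0146) and Orai1 (-0.90, 0.00568) downward. Prkch and Prkcq are protein kinase C genes, Map2k6 activates p38, Vav2 is a relative of Vav1 and Ptpn6 a tyrosine phosphatase. The level of Prkch was near the detection floor, at 0.72 ± 0.70 CPM in PEP-/- and 0.51 ± 0.61 CPM in PEP+/+ libraries (SD, n = 8). Its changes by DEX therefore rest on few reads, and their size is uncertain. The median log2 fold change of the 48 was 0.071, -0.143, 0.007 and -0.218 in the order above. With the block 20, 23, 17 and 20 were called, beside 37.9%, 37.6%, 26.7% and 33.3% of all genes. The receptor chain Fcer1a gave 0.064 with DNP (edgeR adjusted p = 0.867) and 0.24 with DEX (edgeR adjusted p = 0.472). Between genotypes 0 of the 48 were called, where 1.59% of all genes were called, with 4 at an unadjusted p under 0.05 and 0 by DESeq2. With the block 8 were called (16.7%), beside 17.4% of all genes, so their share was near that of all genes. These 8 were all higher in PEP-/-, and the share of all genes called higher was not counted.

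The calls differed in how far they held when a library was left out or a setting changed. Lcp2, Pik3cd, Mapk14 and Sphk1 kept the call by DNP without DEX, Lcp2, Tec, Plcg1, Pik3cd and Sphk1 that by DNP with DEX, Lyn, Plcg2, Pik3cd, Mapk14 and Cblb that by DEX without DNP, and Lyn, Plcg2, Cblb and Sphk1 that by DEX with DNP, under every alternative that could be fitted. Fgr, admitted through its DEX libraries, is left out here. Of the 46 calls, 26 missed the threshold in at least 1, with adjusted p up to 0.362, and no value changed sign. Some were lost in most of their 22 alternatives. By DNP with DEX these were Prkcd (lost in 17), Hras (15) and Lat (12). The others were Pik3cd by DEX with DNP (17) and Pik3ca by DNP without DEX (14).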

How the data were processed

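RNA of 16 BMMC samples was sequenced as stranded paired-end mRNA libraries. The authors aligned reads with TopHat2 to GRCm38 with Ensembl annotation, counted them per gene with HTSeq and deposited raw counts, without normalization, 1 file per sample. The DESeq2 named in the submitters' notes was used for their own comparisons, which were not used here. Rows that name no gene held 29.1 to 49.6% of the reads and were left out of library sizes and tests. Reads that align to several places are among them, so near-identical copies are undercounted. The number of columns without a sample was 0.

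Gene names, positions and exon lengths were matched by Ensembl ID for 37607 of 39179 IDs (95.99%). Counts were scaled with TMM and filtered with filterByExpr (minimum count 10), and 13305 genes were tested with edgeR 4.0.16 (quasi-likelihood, R 4.3.3) in 1 fit of 8 condition means over all 16 samples, giving 8 residual degrees of freedom. Treatment comparisons averaged the genotypes. P-values were adjusted by Benjamini-Hochberg over all genes tested, with a threshold of 0.05. CPM and RPKM used the TMM library sizes, and plots were drawn with matplotlib 3.10.9 in Python 3.11.15. The edgeR and DESeq2 steps were also run on simulated counts for DNP without DEX. Those counts had no difference between the replicate sets, so they did not test the block.

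Samples with the same replicate number deviated together, with r from 0.453 to 0.799 over 13305 genes in 28 of 28 pairs of conditions, so the replicate set was also fitted as a block (7 residual degrees of freedom, common biological coefficient of variation 0.133, and 0.312 without the block). The pairing comes from the data, as the labels do not say what a set shares. Counts limit precision for Fgr, Sphk1, Pik3r5 and Cbl, and for Prkch among the further pathway genes. Folds against 0 reads are bounds from a floor of 3 counts that cover counting error only.

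Members and lists were chosen with earlier results of these data known. Every called member is named, values in each sample are given for the greatest called change in each direction and for the highest and lowest level per length (after IgE) of each step, and of the further pathway genes up to 3 per direction are named, less some that are not reported here. RefSeq windows of 250 bases before each start were searched for motifs. Alternatives were the block, DESeq2's size factors, no filter on low counts, at least 10 counts in every sample, DESeq2 1.42.0, only the conditions compared, and leaving out each library.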

Additional observations from a re-analysis of the deposited data

How the results depend on the processing

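Of 1901 values of 87 member changes recomputed under the alternatives, 1615 kept their direction and side of the threshold, 214 lost the call, 72 gained it and 0 reversed. With the replicate set as a block the members called rose to 20 of 44 by DNP without DEX, 23 by DNP with DEX, 18 by DEX without DNP, 20 by DEX with DNP and 6 between genotypes, and no call was lost. In the other direction, no filter on low counts gave 8 by DNP without DEX, where 2314 of 23136 genes were called. Fitting only the conditions compared gave 8 by DNP without DEX (1655 of 12709 genes called) and 5 by DNP with DEX (953 of 12891). The main fit called 2216 and 1678 of 13305 genes in these 2 comparisons. DESeq2 gave 1 between genotypes, where 707 of 13305 genes were called. The cause was not tested. The fit of only the conditions compared was not run for the DNP by DEX interaction and the genotype mean, which use all 8 conditions, and a minimum of 10 counts in every sample left 41 members.

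Leaving out 1 library gave 4 to 13 members by DNP without DEX, 5 to 12 by DNP with DEX, 7 to 12 by DEX without DNP, 7 to 9 by DEX with DNP and 0 to 0 between genotypes. The lone sample of its condition is then assumed to vary like the other groups. The number of all genes called also changed between these fits, so the counts do not describe the members alone. By DNP without DEX the count was 8 without PEP-/- IgE replicate 1 or PEP+/+ IgE DNP replicate 2, 6 without PEP+/+ IgE replicate 2 or PEP-/- IgE DNP replicate 2, and 4 without PEP-/- IgE replicate 2. By DNP with DEX it was 7 without replicate 1 of PEP+/+ IgE DEX, PEP+/+ IgE DNP DEX or PEP-/- IgE or replicate 2 of PEP-/- IgE, 6 without either PEP-/- IgE DEX replicate, and 5 without replicate 2 of PEP+/+ IgE DEX or PEP-/- IgE DNP DEX. By DEX without DNP it was 7 without PEP+/+ IgE DEX replicate 1, PEP-/- IgE DEX replicate 1 or PEP+/+ IgE replicate 2. The 3 interactions had 0 members under every alternative that could be fitted.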
